A study of Mus musculus with 4 samples.

Results

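CTCF peaks that flank genes without touching their ends are described here in cultured mouse cortical neurons. They are the peaks whose summit, the point of highest signal, lies outside every protein-coding gene and more than 1 kb but at most 5 kb from the nearest protein-coding gene end. Only chromosomes 1 to 19 and the gene bounds of RefSeq GRCm38.p6 were used, and peak strength played no part in the choice. There were 2748 such flank peaks among the 33075 peaks on these chromosomes, or 8.31% (exact Clopper-Pearson 95% interval 8.01 to 8.61), of 33820 in all. The remaining peaks on chromosomes 1 to 19 lay outside genes within 1 kb of an end (2290), inside genes within 1 kb of an end (3696), inside genes farther from both ends (14462), or more than 5 kb outside (9879).

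CTCF is a DNA-binding protein with a row of zinc fingers that reads a long, GC-rich sequence motif. Together with cohesin, the ring complex that extrudes chromatin loops, it marks loop anchors and domain boundaries and can insulate an enhancer from a promoter. Peaks just beside a gene sit where promoter-proximal elements, downstream boundaries and the starts of non-coding RNAs are found. They need not act on the nearest gene.

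The immunoprecipitation samples were 2 CTCF ChIPs, labelled biological replicates, and their 2 references were input DNA. All came from wild-type Swiss-Webster embryonic day 16 cortex, dissociated and kept for 13 days in culture, in a study of the topoisomerase TOP2B. The labels' culture text speaks of the TOP2 poison etoposide, but these samples are labelled as untreated. Cultures of this kind can hold cells other than neurons, and a peak list carries no expression, so the cell type could not be checked against its markers. What was deposited is 1 list of peaks found in both replicates, with no values for the inputs, so all comparisons set one class of its peaks, or of genes, against another. Peaks and genes are not replicates, read depth is unknown, and all intervals below are exact 95% intervals that cover counting error only.

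The sequence under a flank peak could be read where its summit fell into a RefSeq gene-start window, which runs from 250 bases before to 50 bases after an annotated start. By construction no protein-coding start qualifies, and the 14 flank peaks found this way all lay at starts of long non-coding RNAs (lncRNAs). The windows were searched on both strands for the core of the CTCF motif, which is CC, any 3 bases, AG, any 2 bases and GGC, and for a stricter form contained in it, in which the 2 bases after AG are both G. The core was present at 10 of the 14 peaks (71.4%, interval 41.9 to 91.6), the stricter form at 3 of them. The following 60-base stretches (RefSeq GRCm38.p6, 5′ to 3′ on the strand that carries the motif, core motif in capitals) are the 7 in which the centre of the motif lay within 25 bp of the summit, and are shown because they put the motif next to a flank peak's summit. They are named by the lncRNA, with the nearest protein-coding gene in brackets.

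Gm33460 [Eomes], chr9:118489829-118489888, minus strand: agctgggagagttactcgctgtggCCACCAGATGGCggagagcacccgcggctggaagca

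Snhg7 [Dipk1b], chr2:26640302-26640361, minus strand: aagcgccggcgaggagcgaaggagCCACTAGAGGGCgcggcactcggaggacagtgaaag

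Chrna1os [Chrna1], chr2:73584731-73584790, plus strand: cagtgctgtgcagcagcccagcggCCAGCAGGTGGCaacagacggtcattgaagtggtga

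Gm38588 [Gucy2d], chr7:98481167-98481226, plus strand: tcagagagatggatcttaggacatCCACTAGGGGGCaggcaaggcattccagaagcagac

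Gm39228 [Mt1], chr8:94183299-94183358, minus strand: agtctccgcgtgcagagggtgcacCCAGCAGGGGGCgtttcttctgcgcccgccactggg

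Abhd11os [Abhd11], chr5:135013269-135013328, plus strand: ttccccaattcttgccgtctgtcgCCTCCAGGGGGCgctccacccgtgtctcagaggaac

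Gm33487 [Lrrc9], chr12:72432412-72432471, minus strand: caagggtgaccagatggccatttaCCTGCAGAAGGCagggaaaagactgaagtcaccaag

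Across the 10 peaks with a motif, its centre lay 4 to 56 bp from the summit, with a median of 13 bp, and within 25 bp at 7 of them. The motif was on the plus strand at 5 and on the minus strand at 5. At Gm38588, Gm39228 and Abhd11os it had the stricter form. The strength of these peaks spanned a wide range. At Gm33460, beside Eomes, a T-box transcription factor of cortical intermediate progenitors, the joint strength was 728.6. At 8430419K02Rik, beside the homeobox gene Meis1, it was 167.2, and at Gm33487, beside Lrrc9, it was 48.5. In the remaining 4 windows, at Gm26802 (beside Fosb), 9530082P21Rik (Kremen2), Gm40929 (Tbc1d7) and Gm30731 (Pou3f2), these letters were absent, which says nothing about CTCF there beyond that.

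The background of the motif was low. Of 548 lncRNA start windows in the same 1 to 5 kb flanks that had no summit within 500 bp of their centre, 25 held the core motif (4.56%, interval 2.97 to 6.66). Of all 31396 gene-start windows, 8.73% held it and 1.30% held the stricter form. Over all windows, 38% held the core motif where the nearest summit was at most 75 bp from the window's centre. The share was 28.0% at 75 to 150 bp, 12.5% at 150 to 500 bp, 11.6% at 500 to 1000 bp, 6.96% at 1 to 5 kb and 5.92% beyond 5 kb. A match to these letters is a description and not a proven binding site, and the cells were of another strain than the reference genome.

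**Figure D1:**
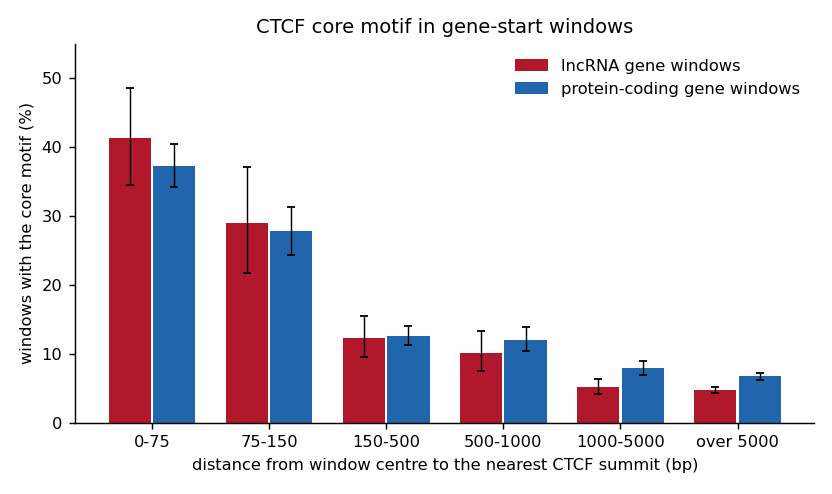
Share of RefSeq gene-start windows (%) that held the CTCF core motif, by distance in bp from the window's centre to the nearest CTCF summit, for lncRNA windows (red) and protein-coding windows (blue). Bars are shares and whiskers exact 95% binomial intervals; both kinds of window fall with distance, lncRNA windows from 41.4% at 0 to 75 bp to 4.79% beyond 5 kb.

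Flank peaks stood above the list's median strength more in the second replicate column than in the first. Strength here is a value the authors deposited, in which the −log10 p of a peak in each replicate are added up. It had a median of 203.3 in flank peaks (middle 50% of peaks 101.7 to 352.3, range 32.5 to 6692.5), against 167.9 over all peaks of chromosomes 1 to 19 and 180.0 in peaks more than 5 kb outside. Nearer to the flank the medians were 246.3 outside genes within 1 kb of an end, 200.4 at 5 to 10 kb and 202.9 at 10 to 20 kb, and the lowest median outside genes was 154.3, beyond 50 kb. Of the flank peaks, 1593 (58.0%, interval 56.1 to 59.8) exceeded the list's median, against 60.6% within 1 kb outside and 57.1% at 5 to 10 kb. In the first replicate column 51.5% exceeded that column's median, and in the second column 59.9% did. The file does not say which labelled replicate either column is.

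The first column set flank peaks apart from peaks just outside gene ends, and the second hardly did. Their median −log10 p was 32.6 in the first column and 164.3 in the second, against 61.9 and 170.5 in peaks outside genes within 1 kb of an end. The log2 ratio of the second to the first column had a median of 2.14 in flank peaks and 0.92 in those end peaks. It was 0.21 in peaks inside genes within 1 kb of an end and 1.95 in peaks inside genes farther from both ends. In peaks over 5 kb outside it was 2.25, and 1.90 over the whole list. On this measure flank peaks lay nearer to peaks away from gene ends, inside or outside genes, than to peaks within 1 kb of an end. The second column was the higher one in 2672 flank peaks (97.2%), against 90.7% of all peaks. A difference in depth between the libraries moves every peak this way, and its part was not tested. In flank peaks the columns ranked peaks alike, with a Spearman rank correlation of 0.77 across the 2748 peaks. The correlation was 0.79 outside genes within 1 kb of an end and 0.76 inside genes within 1 kb. It was 0.66 inside genes farther from both ends, 0.72 more than 5 kb outside and 0.65 across the whole list. The columns share the peaks on which the joint list was chosen, so these are descriptions.

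**Figure D2:**
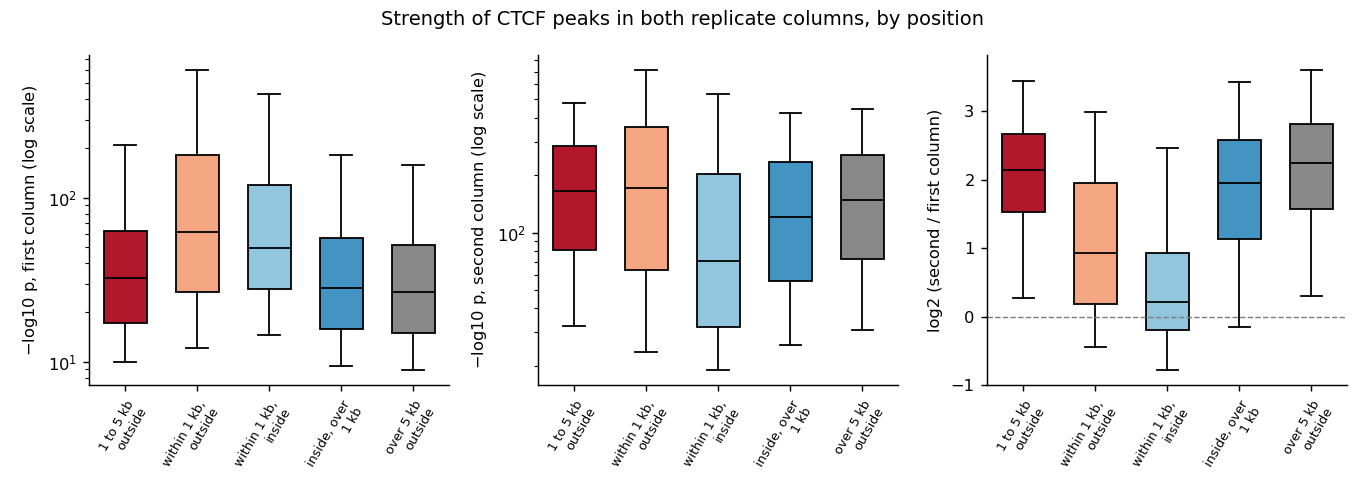
Strength (−log10 p, log axes) in the first and second replicate columns and the log2 ratio of second to first, for flank peaks (red, left) and the other 4 classes of peaks. Boxes span the quartiles with the median as a line and whiskers run from the 5th to the 95th percentile of peaks; the ratio has a median of 2.14 in flank peaks and 0.21 in peaks inside genes within 1 kb of an end.

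The ratio changed with strength within the flank peaks. The 2748 peaks were put into 4 groups of 687 by strength. From the weakest group to the strongest, the median log2 ratio was 1.73, 2.39, 2.44 and 1.94. All peaks of the list within the same bounds of strength had medians of 1.44, 2.24, 2.39 and 1.65. Flank peaks were thus higher on this ratio in each group, and by less in the middle groups than at either end. Flank peaks had a median width of 1158.5 bp, against 1129 bp over all peaks, and the summits of both replicates lay a median of 29 bp apart. The peak itself reached into a protein-coding gene in 76 of the 2748, although its summit lay outside.

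Summit density outside genes fell steeply within 1 kb of an end and more slowly through the 1 to 5 kb flank, with no clear drop at its outer limit. Summits were counted per Mb of sequence outside protein-coding genes at each distance from the nearest end. There were 98.3 per Mb (93.7 to 103, exact Poisson interval) at 0 to 500 bp and 37.1 at 500 to 1000 bp. Within the flank, the 8 steps of 500 bp ran from 28.9 at 1 to 1.5 kb (26.3 to 31.7) through 26.4, 28.5, 26.3, 23.6, 25.4 and 25.4 to 22.1 at 4.5 to 5 kb (19.4 to 25). Beyond it the density was 20.0 at 5 to 10 kb, 16.3 at 10 to 20 kb, 11.6 at 20 to 50 kb and 3.97 farther out. The whole flank held 26.0 summits per Mb in 105.8 Mb, which was 3.36 times (3.22 to 3.50) the density more than 5 kb outside. Of that distant sequence, 836.25 Mb lay beyond 50 kb, where the density was lowest. Strength hardly varied by step, with medians between 191.5 (3.5 to 4 kb) and 216.2 (1 to 1.5 kb), against 266.7 at 0 to 500 bp.

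The side of the gene mattered close to the end and less in the flank. At 0 to 500 bp there were 162 summits per Mb upstream of the nearest gene, on the side of its start, and 35.1 downstream. Within the flank the order varied by step. Upstream was the higher side at 1 to 1.5 kb (31.1 per Mb upstream and 25.5 downstream) and at 4 to 4.5 kb (24.9 upstream and 22.8 downstream). Downstream was the higher side in the other 6 steps, by most at 1.5 to 2 kb, with 21.3 upstream (17.8 to 25.4) and 32.2 downstream (27.7 to 37.3). Over the whole flank 1056 peaks lay upstream and 1108 downstream, so 48.8% (46.7 to 50.9) of the 2164 with a known strand were upstream, at 23.9 per Mb upstream and 27.6 downstream. Strand was given for 16457 of 20558 protein-coding genes (80.1%), and for 584 flank peaks the side is not known. Upstream and downstream flank peaks had median strengths of 196.6 and 208.4.

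**Figure D3:**
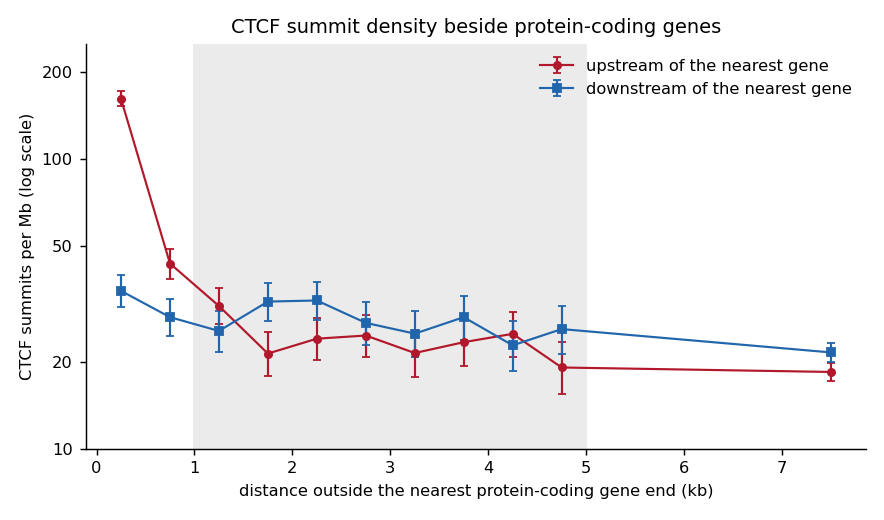
CTCF summits per Mb of sequence outside protein-coding genes (log axis) by distance in kb from the nearest gene end, upstream (red circles) and downstream (blue squares) of that gene. Points stand at the middle of each step, whiskers are exact 95% Poisson intervals, and the shaded band is the 1 to 5 kb flank; the upstream density is 162 at 0 to 500 bp and 21.3 at 1.5 to 2 kb.

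Flank peaks were denser where genes stand close together. In stretches of at most 10 kb between protein-coding genes there were 37.6 flank peaks per Mb of flank, then 28.3 in stretches of 10 to 20 kb, 24.4 in 20 to 50 kb, 21.5 in 50 to 100 kb and 20.0 in stretches over 100 kb. Median strength was 223.6 in the shortest stretches and 198.9 in the longest. Between genes whose starts face each other there were 27.9 per Mb, between genes whose finishes face each other 27.7, and between genes that run the same way 23.8. A further 912 flank peaks (33.2%) lay in stretches whose orientation could not be told, at 27.1 per Mb. In 353 cases (12.8%) the summit was within 5 kb of a gene on both sides, so the nearest gene is then only the nearer of a pair. By chromosome the density ran from 18.7 per Mb of flank on chromosome 13 to 35.6 on chromosome 11.

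**Figure D4:**
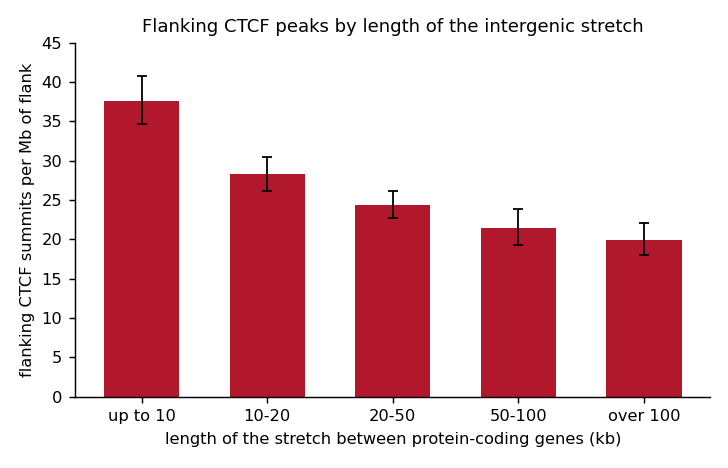
Flank peaks per Mb of 1 to 5 kb flank by the length in kb of the stretch between neighbouring protein-coding genes. Bars are densities and whiskers exact 95% Poisson intervals; the density is 37.6 in stretches of up to 10 kb and 20.0 in those over 100 kb.

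Flank peaks also clustered with other peaks. Another summit of the list lay within 5 kb of 1088 flank peaks (39.6%), against 26.0% of all peaks. The share was 29.1% of peaks outside genes within 1 kb of an end and 21.1% of peaks more than 5 kb outside. The nearest other summit was a median of 7170.5 bp away, against 12129 bp over all peaks. This count depends on how many weak peaks the list holds: it was 21.5% among peaks above the median strength, and 26.9% and 20.5% among those above the median of the first and of the second column. The share over all peaks under these filters is not given here, so whether the difference from all peaks remains is not known.

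Non-coding genes lay at 534 flank peaks (19.4%, interval 18 to 21), which were inside such a gene or within 1 kb of it. Of peaks more than 5 kb outside, 23.1% did so (22.3 to 24). LncRNAs made up most of these, with 448 flank peaks (16.3%) against 19.9% of the distant peaks. Pseudogenes were near 47 flank peaks (1.71%, against 1.80% of the distant peaks) and tRNA genes near 9 (0.33% against 0.43%). SnoRNA genes were near 17 (0.62% against 0.31%) and snRNA genes near 9 (0.33% against 0.19%). For each of these kinds the intervals of flank and distant peaks overlapped. Flank peaks at non-coding genes of any kind had a median strength of 211.5, and the others 201.6.

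The 10 strongest flank peaks included several at non-coding genes. The strongest of the whole list, at chromosome 6 from 47650529 to 47651611, lay 1694 bp upstream of the predicted gene Gm40369. This peak lay at the lncRNA Gm40371, with −log10 p of 3556 in the first column and 3137 in the second. Beside Kiss1r, the receptor for kisspeptin, the peak at chromosome 10 from 79924239 to 79928463 had 1408 and 1269, and it lay at lncRNA Gm40715. Beside Tac4, a tachykinin precursor gene, the peak at chromosome 11 from 95258163 to 95260514 had 1138 and 1347. The log2 ratio of the second to the first column was -0.18, -0.15 and 0.24 at these 3 peaks, where its median over flank peaks was 2.14.

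The others of the 10 strongest lay beside 1600014C10Rik (1201 in the first column and 1224 in the second), Gnai2 (1041 and 1014), Gm5737 (706.6 and 1025), Kcnk18 (750.5 and 918.9), Otop1 (317.6 and 1350), Epb41l4a (916.3 and 747.6) and Gata2 (720.6 and 880.1). Gnai2 encodes an inhibitory G protein subunit, Kcnk18 a potassium leak channel, Otop1 a proton channel and Gata2 a zinc finger transcription factor. The first column was the higher one in 4 of the 10, against 76 of all 2748 flank peaks. The peak beside Otop1 leaned to the second column as most flank peaks did. The peak beside Gm5737 lay at a leucine tRNA gene, n-TLtag1, and one beside Cfap126 with a strength of 1187 at a valine tRNA gene, n-TVcac6. Strong flank peaks were found at every distance: the strongest of the step from 4.5 to 5 kb, downstream of the Fc receptor gene Fcgr1 at 4793 bp, had 530.7 in the first column and 655.6 in the second.

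In all 2537 of 20558 protein-coding genes, 12.3%, were the nearest gene of at least 1 flank peak. With only the peaks above the median of the first or of the second column, 6.61% and 7.71% were. Of the 2537 genes, 2332 had 1 flank peak, 199 had 2 and 6 had 3. The 6 were Slc25a48, 1810055G02Rik, Pkib, Id3, Arhgap19 and Arhgap35. Arhgap35, which encodes a GTPase-activating protein, had peaks with strengths of 485.4, 267.5 and 424.7, the first pair upstream and the last downstream. Id3, an inhibitor of basic helix-loop-helix factors, had a strength of 133.4 at 3403 bp upstream, and of 40.1 and 252.2 at 2614 and 4532 bp downstream. By gene length the share ran from 10.3% of genes of at most 10 kb to 13.7% of genes of 30 to 100 kb and 11.8% of those over 300 kb. Per Mb of flank the order differed, with 22.8 flank peaks at genes of at most 10 kb, 30.8 at 10 to 30 kb, 27.3 at 30 to 100 kb, 23.7 at 100 to 300 kb and 17.6 over 300 kb, while the mean flank per gene was 4.94 kb in the shortest group and 7.04 kb in the longest.

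Genes with a flank peak more often had CTCF elsewhere too than other genes with flank sequence. A summit within 1 kb of an end was present at 34.4% of genes with a flank peak. It was present at 28.8% of genes that had flank sequence but no flank peak. A summit anywhere inside the gene, which can also be one within 1 kb of an end, was present in 56.2% against 44.9%. Neither was found at 36.2% of genes with a flank peak, against 48.3%. The 2 groups differed in other ways, and the shares are not adjusted for them. Genes with a flank peak had a median length of 20579 bp and a median flank of 7018 bp, against 18818 and 6188.5 bp. Of 1103 olfactory receptor genes, 22 had a flank peak and 7 an end peak, and they were not set apart. Among genes with no flank sequence, 36.4% had an end peak, 42.7% a summit inside and 46.0% neither. Counted by peak, 990 of the 2748 flank peaks (36%) were beside a gene with neither, and 949 (34.5%) were beside a gene with an end peak. That share was 17.3% among peaks above the median strength, and 24.9% and 14.7% when only peaks above the first or the second column's median were kept. No matching share for other genes is given under these filters.

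At 105 genes flank peaks stood on both sides. Ranked by the strength of the weaker side, the first pair framed Unc5b, a receptor for the axon guidance cue netrin, with −log10 p of 273.4 in the first column and 818.4 in the second on the downstream side, and 527.1 and 486.0 on the upstream side. The 2 summits of Unc5b are 74586 bp apart. Cyp46a1, the brain's cholesterol hydroxylase, had a strength of 1259 upstream and 677.0 downstream. Lmx1b, a LIM homeobox transcription factor gene, had 675.9 upstream and 814.6 downstream. Nek2, a centrosomal kinase gene, had 531.8 upstream and 754.2 downstream, and Epop, which encodes a Polycomb-associated protein, had 528.5 and 464.3 (strand not given).

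Gene lists are described by their counts beside the 12.3% of all genes. No test was made of any list, and the lists were drawn up with earlier results of these data known. Among developmental regulators of the cortex, 10 of 30 transcription factor genes had a flank peak (33.3%, interval 17.3 to 52.8), among them Bcl11b, Emx2, Eomes, Pou3f2, Pou3f3 and Tbr1. Their 14 flank peaks made 64.3 per Mb of flank, against 26.0 beside all genes, with 104 against 68.7 at 0 to 1 kb and 19.4 against 20.0 at 5 to 10 kb. Emx2, a homeobox gene of cortical patterning, led with 307.9 in the first column and 431.1 in the second, 4317 bp upstream at its antisense RNA Emx2os. Eomes followed with 234.9 and 493.7.

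Axon guidance genes had 12 of 38 (31.6%, 17.5 to 48.7), at 55.3 per Mb of flank, 153 at 0 to 1 kb and 16.7 at 5 to 10 kb. The strongest were beside Efna5, an ephrin ligand (568.7 and 744.6), and Epha4, an ephrin receptor (593.0 and 684.6), both upstream. Genes induced by neuronal activity had 12 of 34 (35.3%, 19.7 to 53.5), at 53.8 per Mb of flank, 60.4 at 0 to 1 kb and 15.4 at 5 to 10 kb. They were Dusp6, Egr1, Egr3, Fos, Fosb, Fosl2, Gadd45b, Ier2, Jun, Npas4, Nr4a3 and Rheb. Egr1, an immediate early zinc finger gene, had 354.7 and 552.4 at 1176 bp, and Fosb, a Fos family gene, 150.3 and 677.7 at 1852 bp downstream. Interneuron genes had 7 of 21 (33.3%, 14.6 to 57.0), among them Dlx2, Dlx5, Gad1 and Vip. Dlx5, a homeobox gene, had 53.8 and 366.7.

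Synaptic genes had shares whose intervals include that of all genes. Of 30 genes for synaptic vesicles and active zones, 3 had a flank peak (10.0%, 2.11 to 26.5): Slc17a6, Slc17a7 and Sv2b. The peak upstream of Slc17a7, a vesicular glutamate transporter gene, was strong in both columns, at 456.4 and 659.9. Of 35 genes for postsynaptic scaffolds and receptors, 3 had one (8.57%, 1.80 to 23.1): Camk2a, Gria2 and Grin2a. Gria2, an AMPA receptor subunit gene, had 14.5 and 200.9, and Camk2a, a synaptic kinase gene, had 109.1 and 336.1. Summits within 1 kb of an end were present at 17 of 30 and 14 of 35 of these genes, against 30.3% of all protein-coding genes. Voltage-gated channel genes had 5 of 33 (15.2%, 5.11 to 31.9), with Kcnc1, a potassium channel gene, at 115.1 and 470.7.

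Genes used in all cells had shares above 12.3%, though the interval of ribosomal protein genes includes it. Housekeeping genes had 10 of 35 (28.6%, 14.6 to 46.3), at 77.1 per Mb of flank, 108 at 0 to 1 kb and 38 at 5 to 10 kb. Eef2, a translation elongation factor gene, had 469.9 and 406.4, and Ppia, a cyclophilin gene, 70.8 and 422.8. Ribosomal protein genes had 16 of 80 (20.0%, 11.9 to 30.4), at 58.2 per Mb of flank, 261 at 0 to 1 kb and 84.9 at 5 to 10 kb, led by Rps24 (109.6 and 419.1). The share among regulators of chromatin loops was close to that of all genes. Genes of cohesin, CTCF and topoisomerases with their partners had 3 of 28 (10.7%, 2.27 to 28.2): Smc3, a cohesin subunit gene, at 40.8 and 273.9, Zfp143 at 9.32 and 103.4, and Ldb1. Imprinted genes had 8 of 39 (20.5%, 9.30 to 36.5), led by Cdkn1c (157.3 and 350.4) and Ddc (57.7 and 415.7).

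Markers of other cell types the culture could hold also had flank peaks, which says nothing of whether those cells were present. Astrocyte markers had 7 of 15 (46.7%, 21.3 to 73.4), led by Sox9 (74.8 and 398.8) and Slc4a4 (52.6 and 327.4), with Fgfr3, Gfap, Gja1, Ndrg2 and Slc1a3. Microglia markers had 3 of 15 (Aif1, C1qb and C1qc), oligodendrocyte markers 2 of 14 (Cldn11 and Mobp), and vascular and fibroblast markers 2 of 15 (Cdh5 and Col1a2).

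Clustered gene families spanned the range. Hox genes had 6 of 39 (15.4%, 5.86 to 30.5), with Hoxa9 at 625.1 and 714.8 and Hoxd9 at 42.2 and 335.8. Their flank was short, with a mean of 2.84 kb per gene against 5.14 kb over all genes. Per Mb of flank they had 54.1 flank peaks, against 26.0 beside all genes. Olfactory receptor genes had 22 of 1103 (1.99%, 1.25 to 3.00), at 2.71 per Mb of flank, and vomeronasal receptor genes 1 of 351, Vmn1r234. Histone genes had 3 of 78 (3.85%), keratin genes 5 of 49 (10.2%) and Zfp genes 40 of 386 (10.4%, 7.51 to 13.8). Per Mb of flank these families had 17.6, 17.8 and 19.2 flank peaks. Histone genes also had a short flank, with a mean of 2.91 kb per gene. The clustered protocadherin genes had 0 of 57, which allows a share of up to 6.27%, but they hold only 4.0 kb of flank in all, since their bounds overlap or abut. Summits within 1 kb of an end were present at 38 of the 57, against 30.3% of all protein-coding genes. A summit counted for every gene with an end within 1 kb of it, so these neighbouring genes can share a summit.

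**Figure D5:**
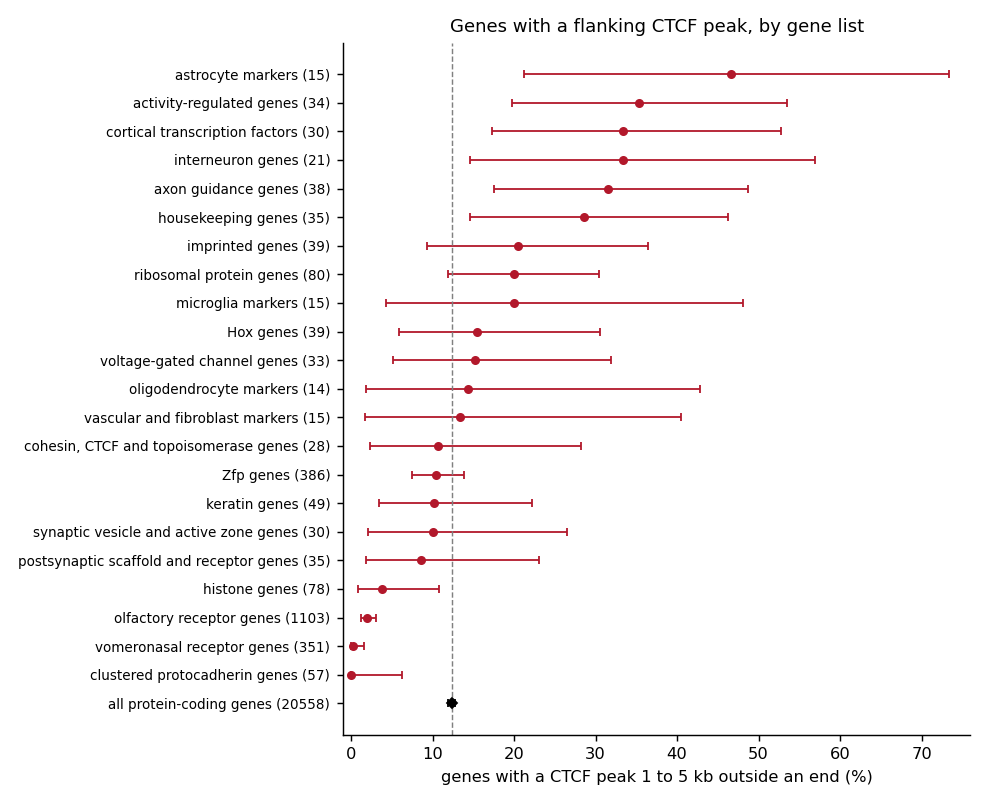
Share of genes (%) with at least 1 CTCF peak 1 to 5 kb outside an end, for 22 gene lists (number of genes in brackets) and, at the bottom, all protein-coding genes (diamond and dashed line, 12.3%). Points are shares and whiskers exact 95% binomial intervals; astrocyte markers stand highest at 46.7% and clustered protocadherin genes lowest at 0.

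Some flank peaks above the list's median strength leaned to 1 column. Towards the second column, Aftph had 7.89 in the first and 222.4 in the second, Cited2 8.31 and 214.2, Hoxa13 10.8 and 265.3, Galnt18 8.53 and 188.3, and Traf6 8.82 and 190.9. Towards the first column, Acaa1a had 243.1 and 131.9, Nat8f4 106.7 and 65.4, Irf2bpl 174.2 and 108.6, Ifnl3 200.6 and 133.3, and Fosl2 178.2 and 136.8. The gap is thus up to 4.82 on the log2 scale in the one direction and 0.88 in the other. The lowest first-column value of any flank peak was 6.84, so the larger gaps rest on values near that column's floor.

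Just inside the inner limit stood Celf4 (1001 bp, strength 125.7), Ddx11 (1001 bp, 35.1) and Ctsh (1002 bp, 325.0), and just outside it Car10 (997 bp, 93.9), Atp5l (999 bp, 50.0) and Mmp16 (1000 bp, 103.0). Just inside the outer limit stood Rbmxl2 (4999 bp, 130.7), Actr6 (4999 bp, 65.1) and Pik3ip1 (5000 bp, 96.0), and just outside it Cpz (5005 bp, 162.7), Gabbr2 (5005 bp, 295.2) and Slc52a2 (5009 bp, 413.6).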

How the data were processed

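The authors deposited 1 peak list, laid out in 20 columns as the output of the IDR program. It joins peaks of both ChIP replicates at a global irreproducible discovery rate (IDR) of at most 0.05. FastQC, BWA, MACS2, SAMtools and Trimmomatic are named in the submitters' processing notes, as are mm10 and GRCm38.p6, which are names for the same mouse build. Versions, the peak threshold and how inputs entered are not given in the sources used. The deposited −log10 p per replicate and their sum depend on depth, which is unknown, and the deposited score is a rescaled IDR that was not used for ranking. All strengths are the authors' values, used only within this list.

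Summits were placed against 20558 protein-coding genes on chromosomes 1 to 19, and 348 genes with scaffold coordinates were left out. Strand came from the RefSeq gene-start table. A fixed rule chose the named genes: the 10 strongest peaks, the strongest per distance step, per gene list and at non-coding genes, the 5 pairs at both ends with the strongest weaker side, genes with 3 peaks, the extremes of the column ratio and the peaks at the limits. Genes that fill a gene list's count are named without values, and the 14 peaks in gene-start windows and the 4 without a motif were named after their values were seen. Members and gene lists were chosen with earlier results of these data known, and the histone pattern was narrowed after the files were seen. A few named by this rule are not reported here. No test was made. Placement and motif search were tested on simulated data. Python 3.11.15, pandas 2.3.3 and scipy 1.17.1 were used.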

Additional observations from a re-analysis of the deposited data

How the results depend on the processing

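The share of flank peaks at non-coding genes ran from 18.7% to 20.6% over the alternatives, within its interval. The share with a motif was 55.6% with an inner limit of 500 bp and with an outer limit of 10 kb. It was 62.5% by the nearest base of the peak and 81.8% with an inner limit of 2 kb. The interval of the motif share, from 14 peaks, is too wide to tell whether that share is stable. The number of flank peaks was 1593 among peaks above the median strength and 4681 with an outer limit of 10 kb. The density ratio of flank to distant sequence was 3.51 at an IDR of 0.01, 3.68 above the median strength, 3.15 by the nearest base of the peak and 3.55 with an inner limit of 500 bp. The share with the higher value in the second column was 97.9% above the median strength and 96.4% with the limit of 500 bp, which gave 50.9% upstream. The share with a neighbour was 33.5% at the stricter IDR, 21.5% above the median strength and 35.0% with the limit of 10 kb. The share beside a gene with an end peak was 27.7%, 17.3% and, with the limit of 500 bp, 46.2%, where each added peak is itself within 1 kb of an end and so counts by construction. The share of genes with a flank peak was 10.4% at the stricter IDR, 7.47% above the median strength, 11.2% by the nearest base, 14.7% and 8.85% with inner limits of 500 bp and 2 kb, 19% with the outer limit of 10 kb and 13.2% without predicted genes. With only the peaks above the median of 1 replicate column, the count was 1415 to 1647, the density ratio 3.64 to 3.94, the share higher in the second column 95.8% to 98.3%, the share with a neighbour 20.5% to 26.9%, the share beside an end peak 14.7% to 24.9% and the share of genes 6.61% to 7.71%. These sets hold fewer peaks by construction. Over all flank peaks, the share above the median was 51.5% to 59.9% when taken in 1 column alone. The share above the median strength has no value among peaks chosen above it. No paired analysis was possible because the list joins both ChIP replicates, its columns carry no replicate number and the inputs have no values. Read depth is unknown, so a peak missing from the list may have been missed for lack of reads.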
